A study of Homo sapiens with 41 samples.

Results

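The genes described here are 10 members of the BCL2 family, taken by gene symbol from all 6 deposited expression tables, out of 23588 genes listed in any of the tables. They are the BH3-only genes BMF, BCL2L11 (which encodes BIM), BBC3 (PUMA), PMAIP1 (NOXA), BIK and BID, and the pro-survival genes MCL1, BCL2, BCL2L1 (BCL-XL) and BCL2A1 (BFL1). Each of the 10 symbols had a row in every table. The study sequenced RNA from 41 samples in 15 groups, to follow human cancer lines after inhibition of the kinase that drives them. A375, Colo800 and UACC62 are melanoma lines that were given vemurafenib, an inhibitor of mutant BRAF, and H3122, from a lung adenocarcinoma, got the ALK inhibitor crizotinib.

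Whole RNA came from cultured cells, which were moved to low-serum medium with drug or vehicle. A375 cells received vehicle or vemurafenib at 0.1 µM for 6 h or 48 h (n = 3 each). Colo800 and UACC62 cells received vehicle, or vemurafenib at 1 µM for 48 h, and H3122 cells vehicle, or crizotinib at 0.3 µM for 48 h (n = 2 each). No time is listed for the vehicle groups. Ribosome-bound RNA, pulled down with antibody against a tagged ribosomal protein (translating ribosome affinity purification), came from tumours grown under the skin of mice. For A375 tumours, 4 were given vehicle and 4 were given vemurafenib, 10 doses at 75 mg/kg. A375R, a vemurafenib-resistant line derived from A375, was grown in tumours whose labels were read as A375R alone or A375R mixed with A375, under vehicle or 10 doses of the drug at 75 mg/kg (n = 3 each). Titles of the A375R samples pair that line with the tagged protein RPL10a but say nothing of the A375 cells mixed in, and the strain and age of the mice are not given in them. The pull-down selects tagged cells, and each line is a single established line, so the groups describe those lines and not melanoma or lung cancer at large. Nothing in the labels ties the samples of a group to separate dishes or mice, so the p-values speak only of sample-to-sample spread, which could be technical.

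The BCL2 family controls whether the outer membrane of mitochondria is opened, the step that commits a cell to intrinsic apoptosis. Pro-survival members hold the pore-forming effectors BAX and BAK in check, and BH3-only proteins bind the pro-survival members or activate the effectors. In cells driven by BRAF or a receptor kinase, ERK signalling is known to lower BIM and BMF and to sustain MCL1, so the family is a common readout of targeted therapy. In the melanocyte lineage BCL2A1 is a known target of the transcription factor MITF.

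Promoter sequence was held for 8 of the 10 genes, with 14 start sites, in a table of RefSeq starts (build GRCh38.p14). The windows of 4 genes are printed, 250 bases up to the start site, 5′ to 3′ on the strand of the gene. BMF and PMAIP1 are shown because they moved most in opposite directions, and BCL2L11 and BCL2A1 because they hold the motifs of FOXO factors and of MITF, whose genes are described below. They lie at chr15:40108880-40109129 on the minus strand for BMF (the first of its 2 listed starts), chr18:59899746-59899995 on the plus strand for PMAIP1, chr2:111120664-111120913 on the plus strand for BCL2L11 and chr15:79971197-79971446 on the minus strand for BCL2A1. Capitals mark a motif, and the windows of BMF and PMAIP1 hold none of those searched.
BMF: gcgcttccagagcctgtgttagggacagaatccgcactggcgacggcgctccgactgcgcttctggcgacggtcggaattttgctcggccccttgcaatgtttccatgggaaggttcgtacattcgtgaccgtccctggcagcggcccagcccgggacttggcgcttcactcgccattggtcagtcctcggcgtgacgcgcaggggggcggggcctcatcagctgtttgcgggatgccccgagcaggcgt
PMAIP1: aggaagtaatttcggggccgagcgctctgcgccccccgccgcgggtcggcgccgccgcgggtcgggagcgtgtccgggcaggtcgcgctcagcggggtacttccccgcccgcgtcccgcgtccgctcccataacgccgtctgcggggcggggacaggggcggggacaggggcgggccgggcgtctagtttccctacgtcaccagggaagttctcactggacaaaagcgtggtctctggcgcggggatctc
BCL2L11: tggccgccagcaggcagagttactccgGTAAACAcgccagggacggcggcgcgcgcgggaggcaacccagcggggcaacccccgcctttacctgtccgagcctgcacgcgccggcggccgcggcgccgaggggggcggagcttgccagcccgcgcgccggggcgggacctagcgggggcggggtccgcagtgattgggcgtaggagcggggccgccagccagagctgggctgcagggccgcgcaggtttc
BCL2A1: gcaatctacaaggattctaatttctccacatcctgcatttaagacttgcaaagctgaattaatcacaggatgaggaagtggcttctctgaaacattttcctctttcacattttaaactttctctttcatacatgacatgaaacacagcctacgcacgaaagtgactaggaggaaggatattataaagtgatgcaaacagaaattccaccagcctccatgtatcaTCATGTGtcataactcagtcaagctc
GC content was 65.2% in the BMF window, 72.8% in PMAIP1, 76.8% in BCL2L11 and 38.8% in BCL2A1, against a median of 58.0% over all 35116 windows of the table. Each motif was searched on both strands of the 250 bases. The FOXO motif GTAAACA stands in capitals in the BCL2L11 window, its first base 223 bases before the start, and 2.98% of all windows hold it. The M-box TCATGTG, a motif that MITF is known to bind, stands in the BCL2A1 window 26 bases before the start and occurs in 2.52% of all windows. The E-box CACGTG (6.34% of all windows) was found in windows of BBC3 and BID, and the AP-1 motif TGACTCA (4.20%) in BBC3. The cyclic AMP response element TGACGTCA (1.65%) and the ETS motif CCGGAAGT (3.42%) were in none of the 14 windows. A match describes letters in these windows and no binding.

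Depth ran from 8063754 to 42843612 reads per library. Values below are normalised reads, the authors' counts divided by a size factor per library, which cannot be compared between tables or between genes of different length. Melanocytic markers (8 genes, among them MITF, SOX10 and MLANA) summed to 4147 to 4358 CPM (reads of a gene scaled to a common library depth) in vehicle Colo800 and 1840.2 to 1858 in vehicle UACC62. In A375 the sum was 796 to 1029 in vehicle culture and 92.7 to 137 in vehicle tumours, where DCT and TYR were at 0. A375R tumours alone under vehicle had a sum of only 11.8 to 21.9, with DCT and TYR at 0 and SOX10 at 2.75 ± 1.02 CPM (SD, n = 3), so these defining markers of the lineage are nearly absent there. H3122 had lung epithelial markers at 5180.3 to 6096 in vehicle.

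A member counts as changed when its adjusted p is under 0.05 in limma, fitted over all genes with a mean value of at least 10 in the table. After 6 h of vemurafenib 2 of 9 members of A375 cells changed, where 4.4% of all tested genes did. After 48 h 5 of 9 changed, beside 50% of all genes. In Colo800 8 of 9 changed beside 73.3%, in UACC62 8 of 10 beside 56.5%, in H3122 6 of 9 beside 46.1%, and in A375 tumours 7 of 9 beside 68.3%. At 48 h and in tumours so large a share of all genes passed that these counts are no result about the family. The share depends on the spread between libraries as well as on the drug. Chi-square per degree of freedom between replicates, near 1 for sampling noise alone, was 1.75 and 1.77 in Colo800 and 1.30 in UACC62 vehicle. It was 12.5 in UACC62 with drug and 5.82 to 32.2 in A375 culture. H3122 had 7.90 in vehicle and 3.47 with drug, A375 tumours 4.75 to 22.5 and A375R tumours 11.1 to 52.8. The A375R libraries were also the deepest. What the data add is which members went up, which went down, and by how much. The 6 BH3-only genes did not move as 1 group. Their median log2 change, over those past the filter, was 0.75 in A375 at 48 h, 1.67 in Colo800, 0.07 in UACC62, 0.08 in H3122 and 0.21 in A375 tumours, with the median of all genes within 0.01 of 0. For the 4 pro-survival genes it was -0.03, -1.0, -0.45, 0.08 (3 genes) and 0.03 in the same order.

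**Figure D1:**
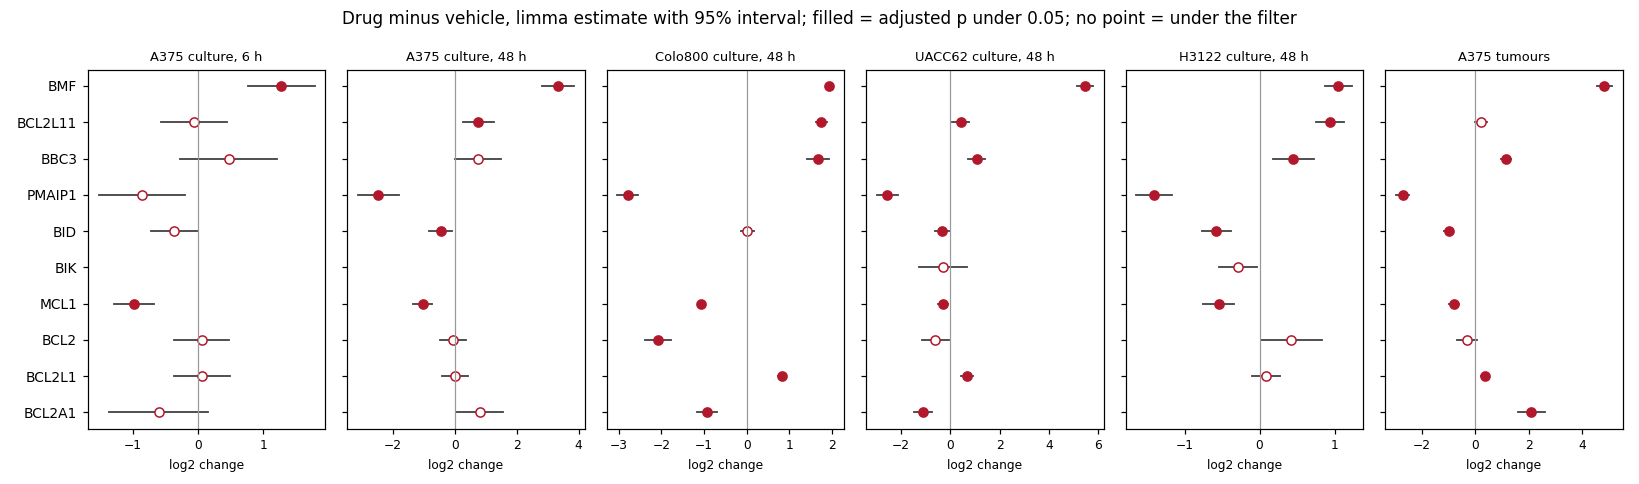
Log2 change of each member, drug minus vehicle, as the limma estimate with its unadjusted 95% interval; filled points have an adjusted p under 0.05, and a gene without a point was under the filter on low values. BMF lies right of 0 in all 6 panels and PMAIP1 and MCL1 lie left of 0 in all 6, with PMAIP1 not past the threshold at 6 h.

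BMF, whose product binds pro-survival proteins when released from the cytoskeleton, rose in all 6 comparisons of drug with vehicle outside A375R. In A375 culture its values were 151, 236 and 179 normalised reads in vehicle, 441, 603 and 344 after 6 h and 2366, 1616 and 1752 after 48 h of vemurafenib. The 3 groups formed 3 steps with no overlap. The log2 change was 1.28 ± 0.23, limma adjusted p = 0.0108 at 6 h and 3.34 ± 0.23, limma adjusted p = 3.27e-06 at 48 h, a 10.1-fold ratio of the group means. At 6 h the call is lost when no filter on low genes is applied (adjusted p = 0.0875).

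In tumours the same line went from 65.7, 57.9, 58.5 and 80.1 normalised reads of BMF under vehicle to 2146, 1491, 1879 and 2197 after 10 doses. Every treated tumour lay far above every vehicle tumour, with a ratio of means of 29.4 and a log2 change of 4.85 ± 0.13, limma adjusted p = 2.17e-14. UACC62 had 40.7 and 33.0 in vehicle and 1590.2 and 1723 with drug, the highest ratio of the 6 comparisons at 45.0 (5.46 ± 0.14, limma adjusted p = 4.73e-08). Colo800 and H3122 began with more BMF. Values went from 992 and 973 to 3826 and 3715 in Colo800 (1.94 ± 0.04, limma adjusted p = 2.12e-17) and from 7292 and 6892 to 15005 and 14395 in H3122 (1.05 ± 0.08, limma adjusted p = 1.70e-06), and in neither line did the groups overlap. The doses and times of these comparisons differ, and differences in size between tables were not tested.

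**Figure D2:**
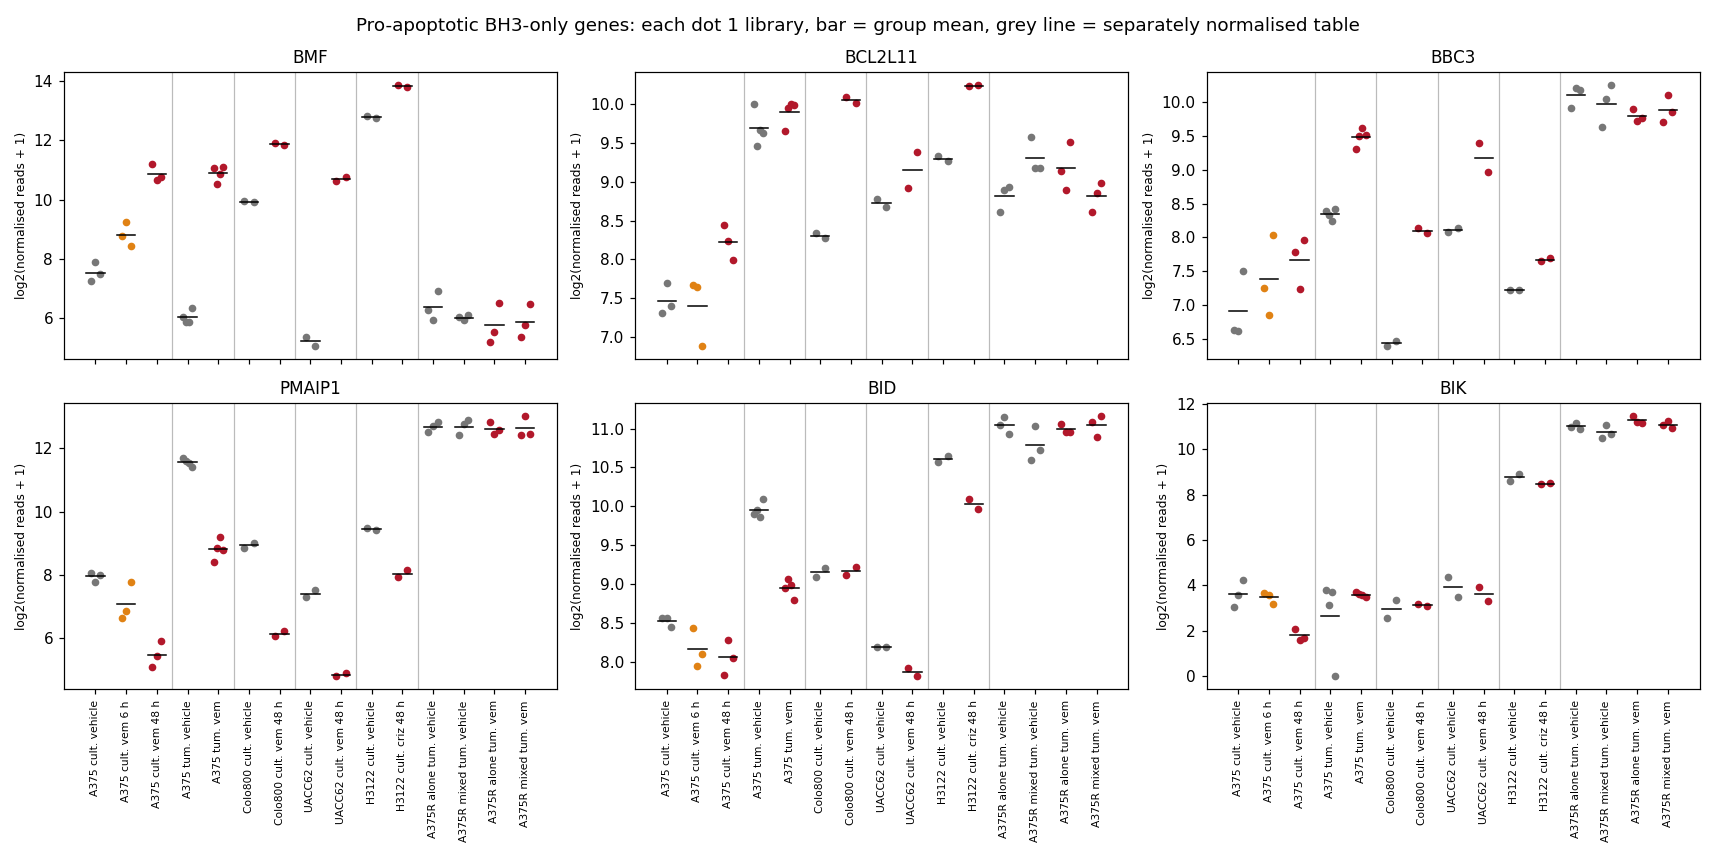
Normalised reads of the 6 BH3-only genes in each of the 41 libraries, as log2(value + 1); grey dots are vehicle, orange 6 h of drug and red 48 h or 10 doses, bars are group means, and grey lines divide the separately normalised tables. BMF climbs and PMAIP1 drops with drug in the lines other than A375R, while in the A375R tumours at the right both keep overlapping ranges, and BIK is high only in the H3122 and A375R tables.

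PMAIP1, which encodes NOXA, a BH3-only protein that binds chiefly MCL1 and BFL1, went the other way. Its values in A375 culture were 269, 221 and 258 in vehicle, 99.2, 117 and 217 at 6 h and 33.1, 42.3 and 59.6 at 48 h. At 6 h all 3 libraries were below vehicle, but the change of -0.86 ± 0.30 did not pass (limma adjusted p = 0.152). Blocking on replicate number took it past the threshold (adjusted p = 0.0265), and it also passed without the third 6 h library (0.0352). At 48 h PMAIP1 fell by a log2 change of -2.48 ± 0.30, limma adjusted p = 7.99e-05.

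The fall of PMAIP1 was of like direction in the other lines and in A375 tumours. In A375 tumours values went from 3316, 3068, 2974 and 2736 to 343, 465, 588 and 444, so vehicle tumours had a mean 6.57 times that of treated ones (-2.74 ± 0.12, limma adjusted p = 6.27e-12). Colo800 went from 465 and 517 to 65.8 and 74.8 (-2.79 ± 0.11, limma adjusted p = 1.04e-13). UACC62 went from 156 and 183 to 26.9 and 29.0 (-2.55 ± 0.18, limma adjusted p = 7.25e-06). The smallest of these falls was in H3122, from 720.0 and 684 to 246 and 283 (-1.41 ± 0.11, limma adjusted p = 1.11e-06). In none of the 5 did a drug library reach the vehicle range.

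BCL2L11, which encodes BIM, an activator of BAX and BAK that binds all pro-survival members, did not pass the threshold at 6 h in A375, where vehicle had 157, 207 and 167 and drug 203, 199 and 118 (-0.06 ± 0.23, limma adjusted p = 0.926). The interval of that difference was -0.57 to 0.44. At 48 h it rose to 347, 299 and 253 (0.75 ± 0.23, limma adjusted p = 0.0179). That call did not hold without vehicle library 1 or 3 or the first 48 h library (adjusted p from 0.0502 to 0.0629) or without the filter (0.0621).

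BCL2L11 also rose in Colo800, from 322 and 308 to 1089 and 1029.6 (1.75 ± 0.06, limma adjusted p = 2.45e-14), and in H3122, from 643 and 614 to 1200.3 and 1216 (0.94 ± 0.09, limma adjusted p = 5.30e-06). UACC62 went from 437 and 408 to 483 and 667, a call near the threshold (0.43 ± 0.16, limma adjusted p = 0.0433) that was lost without either vehicle library (0.0961 and 0.201) or without the filter (0.315). In A375 tumours vehicle had 1025, 703, 809 and 789 and drug 805, 992, 1026 and 1018. The groups overlapped and the difference of 0.21 ± 0.11 did not pass (limma adjusted p = 0.0881). As CPM the means were 62.9 under vehicle and 60.5 with drug, so the direction of this difference depends on the scaling. Without the highest vehicle tumour, or without the lowest treated tumour, the gene passed (adjusted p = 0.0101 and 0.0198).

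BBC3, which encodes PUMA, a p53 target that also binds all pro-survival members, rose in 4 comparisons. Colo800 values went from 83.4 and 87.3 to 280.5 and 267 (1.67 ± 0.12, limma adjusted p = 3.63e-10), UACC62 values from 269 and 281 to 673 and 499 (1.07 ± 0.15, limma adjusted p = 0.000391). A375 tumours went from 334, 321, 301 and 341 to 634, 722, 783 and 728, with no overlap (1.14 ± 0.09, limma adjusted p = 5.72e-09). H3122 went from 149 and 148 to 199 and 206 (0.45 ± 0.13, limma adjusted p = 0.0125), a call that DESeq2 (0.0778) and fits without either crizotinib library (0.0599 and 0.0966) did not make. In A375 culture the groups overlapped, with 97.6, 96.5 and 179.7 in vehicle, 151, 114 and 261 at 6 h and 220.0, 149.7 and 247 at 48 h. The change at 48 h was 0.75 ± 0.34, limma adjusted p = 0.0857, and with the replicate block it passed at an adjusted p of 0.00274, as it did without the third vehicle library (0.0281). In the UACC62 table the call was lost without the filter (0.0668).

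BID, which links death receptors to mitochondria once caspases cut it, fell in A375 tumours from 954, 991, 932 and 1087 to 495, 533, 508 and 441 (-1.0 ± 0.08, limma adjusted p = 1.58e-08). In H3122 it fell from 1523 and 1598 to 1094 and 999 (-0.58 ± 0.09, limma adjusted p = 0.000254). The falls in A375 culture at 48 h (-0.47 ± 0.16, limma adjusted p = 0.0351) and in UACC62 (-0.32 ± 0.12, limma adjusted p = 0.0484) were small and near the threshold. In A375 the call was lost when any of 5 of the 6 libraries was left out (adjusted p from 0.0554 to 0.115). In UACC62 it was lost without either vehicle library (0.312 and 0.309), under quantile normalisation (0.126), with the replicate block (0.0545), without the filter (0.0551), in edgeR (0.0589) and in DESeq2 (0.175). Colo800 showed 544 and 591 in vehicle and 552 and 597 with drug, a difference of 0.02 ± 0.07 with an interval of -0.13 to 0.16.

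BIK, a BH3-only protein of the endoplasmic reticulum, was near the limit of detection in the melanoma lines other than A375R. It was under the filter in A375 culture (7, 10 and 19 recovered reads in vehicle, 12, 13 and 7 at 6 h, and 4, 2 and 2 at 48 h), in Colo800 and in A375 tumours. In 1 vehicle tumour of A375 no read was found among 9452652, which allows up to 0.317 CPM. UACC62 had 19.4 and 10.3 in vehicle and 14.5 and 8.99 with drug, which overlap. H3122 had clear levels, 389.5 and 477 in vehicle and 347 and 359 with crizotinib, and the difference of -0.29 ± 0.12 did not pass (limma adjusted p = 0.0637), though it did without the first vehicle library (0.00139).

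MCL1, a short-lived pro-survival protein that NOXA neutralises, was lower with drug in all 6 comparisons. In A375 culture it went from 8907, 7166 and 6831 in vehicle to 4127, 3854 and 3512 at 6 h and 4273, 3348 and 3513 at 48 h. The fall was as large at 6 h (-0.99 ± 0.14, limma adjusted p = 0.00228) as at 48 h (-1.04 ± 0.14, limma adjusted p = 0.000152), and the 2 times differed by -0.05 ± 0.14 with an interval of -0.36 to 0.25. MCL1 was thus, with BMF, 1 of the 2 members called at 6 h.

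In Colo800 MCL1 went from 7241 and 7457 to 3469 and 3563 (-1.06 ± 0.04, limma adjusted p = 2.93e-14). A375 tumours went from 9545, 7432, 7518 and 8334 to 4472, 4349, 4923 and 4992 (-0.80 ± 0.09, limma adjusted p = 3.83e-07) and H3122 from 44837 and 43281 to 30105 and 30246 (-0.55 ± 0.09, limma adjusted p = 0.000627). All drug libraries of these lines lay under all vehicle libraries, but without the filter the H3122 call was lost (0.431). The smallest fall was in UACC62, from 2363 and 2474 to 1880.1 and 2047 (-0.30 ± 0.09, limma adjusted p = 0.0236). It was lost under quantile normalisation (adjusted p = 0.130), without the filter (0.0867) and without either vehicle library (0.239 and 0.358). MCL1 and its partner PMAIP1 thus both fell in these 5 lines and tumours at the later time, while BMF rose.

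BCL2, the founding pro-survival member, fell in Colo800 alone of the 6 comparisons by the limma threshold, from 235 and 242 to 61.8 and 49.9 (-2.08 ± 0.14, limma adjusted p = 2.38e-10), and whether its change differs between lines was not tested. UACC62 had 57.3 and 72.2 in vehicle and 36.2 and 49.0 with drug, a change of -0.60 ± 0.23 (limma adjusted p = 0.0549) that passed with the replicate block (0.0242) and without the second drug library (0.00171). H3122 pointed up, 61.0 and 51.9 against 78.5 and 72.8, without passing (0.42 ± 0.19, limma adjusted p = 0.0847). In A375 culture the 3 groups overlapped over a range of 88.4 to 130.1, and in A375 tumours the 2 groups over 52.8 to 97.8. In CPM the tumour groups did not overlap, with 4.46 to 7.56 under vehicle and 3.20 to 4.18 with drug (means 5.50 and 3.59). Whether BCL2 overlaps in these tumours thus depends on the scaling.

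BCL2L1, which encodes BCL-XL, rose in Colo800 from 992 and 981 to 1765 and 1737 (0.83 ± 0.05, limma adjusted p = 1.53e-11) and in UACC62 from 611 and 576 to 995 and 918 (0.69 ± 0.10, limma adjusted p = 0.000588). A375 tumours had 1090.4, 1131, 991 and 1039 under vehicle and 1459, 1306, 1341 and 1403 with drug, a smaller rise with no overlap (0.37 ± 0.07, limma adjusted p = 0.000223). As CPM these groups overlapped, with 75.5 to 84.7 under vehicle and 82.2 to 91.5 with drug (means 80.3 and 86.5). The size of this rise and its lack of overlap thus depend on the scaling. A375 culture, from 605 to 1023 over all groups, and H3122, from 1976 to 2251, showed no change past the threshold, with intervals of -0.43 to 0.42 at 48 h and -0.10 to 0.27. As the libraries carry no strand and BCL2L1 overlaps the antisense gene BCL2L1-AS1, its reads cannot be told from that gene's.

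BCL2A1, a pro-survival protein that binds BIM and NOXA, rose in some settings and fell in others. In A375 tumours it rose from 46.5, 65.8, 31.0 and 36.4 under vehicle to 328, 146, 168 and 159 with drug (2.11 ± 0.24, limma adjusted p = 9.42e-07). All treated tumours were above all vehicle tumours, and the first treated tumour stood well above the other treated ones. In A375 culture the vehicle values 77.7, 40.1 and 81.9 overlapped those at 6 h, 30.5, 52.4 and 44.5, and at 48 h, 76.9, 114 and 157. From 6 h to 48 h BCL2A1 rose (1.40 ± 0.35, limma adjusted p = 0.00852), while 48 h against vehicle did not pass (0.80 ± 0.35, limma adjusted p = 0.0764, 0.0385 with the replicate block, and 0.0347 without the first 48 h library).

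In the other melanoma lines BCL2A1 fell, from 313 and 293 to 143 and 174 in Colo800 (-0.94 ± 0.11, limma adjusted p = 4.78e-07) and from 1259 and 1189.9 to 674 and 477 in UACC62 (-1.11 ± 0.16, limma adjusted p = 0.00038, lost without the filter at 0.0790). A test of the difference between lines was not made, as the tables were normalised separately. MITF, whose M-box stands in the BCL2A1 window printed above, rose in all 4 of these 48 h and tumour comparisons, by a log2 change of 1.56 ± 0.31 in A375 culture at 48 h, 1.62 ± 0.10 in A375 tumours, 0.21 ± 0.05 in Colo800 and 0.61 ± 0.10 in UACC62. The sum of the 8 melanocytic markers was also higher with drug, 587 to 637 CPM in A375 tumours and 13014 to 14503 in Colo800; their part in the BCL2A1 result was not tested. In bulk samples more cells of a kind and more RNA per cell cannot be told apart. H3122 had no BCL2A1 read in any of its 4 libraries, which allows at most 0.202 to 0.235 CPM per library.

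**Figure D3:**
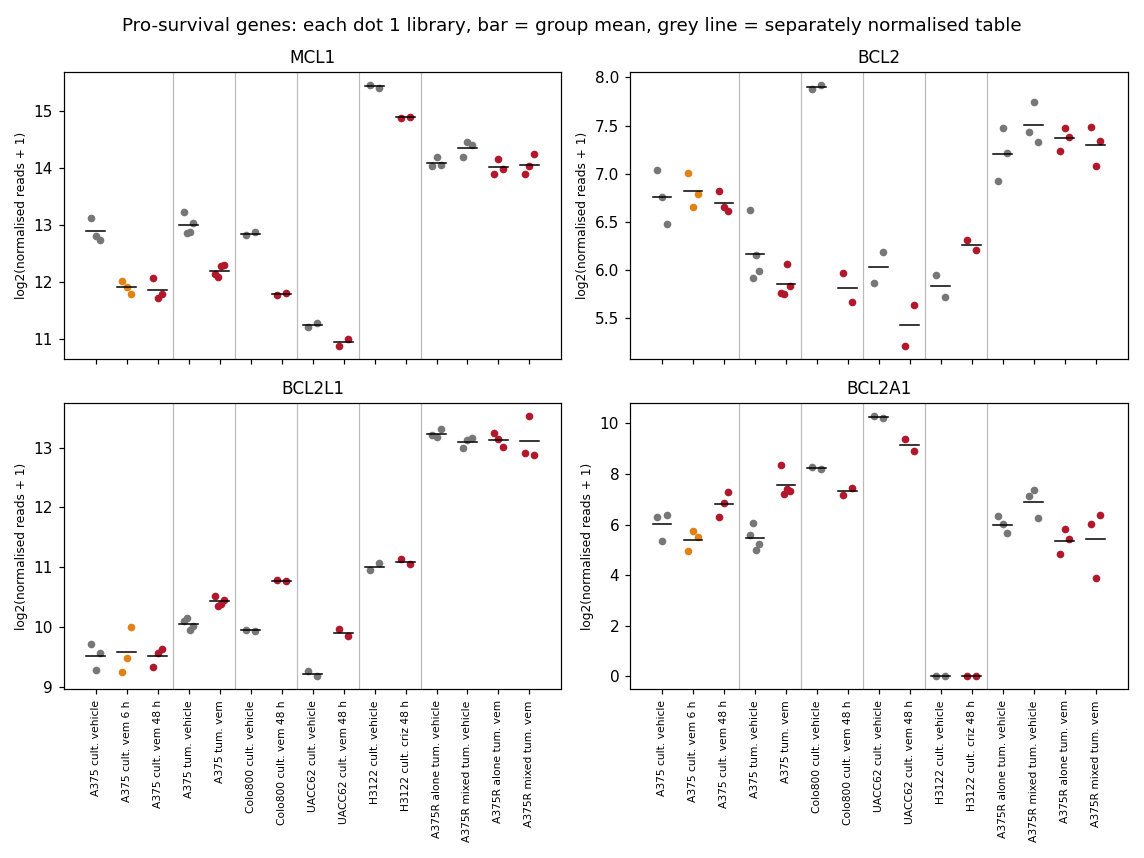
Normalised reads of the 4 pro-survival genes in each of the 41 libraries, as log2(value + 1), with colours, bars and table lines as for the BH3-only genes. MCL1 is lower with drug in the lines other than A375R, BCL2L1 is higher in Colo800, UACC62 and A375 tumours, and BCL2A1 is lower in Colo800 and UACC62 but higher in A375 tumours and at 0 in H3122.

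Between the 2 times of A375 culture, 4 of 9 members differed, beside 39.3% of all genes. Since both times share the vehicle libraries, the contrast of 48 h with 6 h equals, by arithmetic, the difference of their changes from vehicle. The vehicle group has no time listed. Length of drug exposure and time in low-serum medium thus cannot be told apart in this contrast. BMF went up further by 2.06 ± 0.23 (limma adjusted p = 9.41e-05), BCL2L11 by 0.82 ± 0.23 (0.0156) and BCL2A1 by 1.40 ± 0.35 (0.00852), and PMAIP1 fell further by a log2 change of -1.61 (0.00177). The BCL2L11 difference was lost without the first 48 h library (0.0550) and without the filter (0.0594). MCL1 and BID did not differ past the threshold between the times, and BID had all 6 h libraries (345, 246 and 274) under all vehicle libraries (376, 379 and 348) without passing (-0.36 ± 0.16, limma adjusted p = 0.288).

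In the resistant A375R tumours no member passed in limma in any of 5 comparisons. For drug against vehicle this was 0 of 10 in tumours of A375R alone, beside 0.792% of all genes (1 member at an unadjusted p under 0.05), and 0 of 10 in mixed tumours, beside 3.48% (5 members unadjusted). Mixed against alone gave 0 of 10 under vemurafenib, beside 0.24% (1 unadjusted), and 0 of 10 under vehicle, beside 3.3% (3 unadjusted). The interaction, which asks whether the drug response differed between mixed and alone tumours, gave 0 of 10 beside 2.89% (1 unadjusted). By edgeR and DESeq2 these counts were also 0, except for BCL2L11 in the interaction. Few genes of any kind passed here, so the counts do not set the family apart.

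BMF had 76.1, 60.8 and 120.3 normalised reads in A375R alone under vehicle and 36.3, 45.8 and 90.9 under vemurafenib, and 64.7, 60.9 and 67.7 and 40.6, 54.1 and 89.7 in mixed tumours. The drug and vehicle ranges overlapped in both kinds of tumour. The intervals of the log2 drug change were -1.32 to 0.09 alone and -0.85 to 0.56 mixed, both far under the 4.85 ± 0.13 of A375 tumours, which stand in another table, so that difference was not tested. Mixing did not change BMF past the threshold either, with 0.12 ± 0.33 under vemurafenib (interval -0.58 to 0.83).

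PMAIP1 stayed high in A375R with or without drug, from 5620.1 to 7240.4 alone and from 5426 to 8313 mixed. Its drug change was -0.07 ± 0.16 alone (interval -0.40 to 0.27) and -0.05 ± 0.16 mixed (-0.38 to 0.29), and its vehicle and drug ranges overlapped in both kinds of tumour. MCL1 values were 16691, 18688 and 16954 alone under vehicle, 15157, 18306 and 16124 alone with drug, 18734, 22413 and 21677 mixed under vehicle and 15078, 16648 and 19325 mixed with drug. Mixed vehicle tumours had the highest mean of the 4 groups, with all 3 above the vehicle tumours of A375R alone, with a difference of 0.26 ± 0.12, limma adjusted p = 0.251. Under quantile normalisation this difference passed (0.0387), as did the drug change in mixed tumours (0.0213).

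BCL2L11 came nearest to a difference in drug response. Values were 392, 473 and 489 alone under vehicle and 562, 473 and 732 with drug, against 762, 579 and 579 mixed under vehicle and 391, 464 and 507 with drug. In mixed tumours every drug library was below every vehicle library, while alone the groups overlapped with the drug mean higher. The changes were 0.37 ± 0.16 alone and -0.49 ± 0.16 mixed. Their difference was -0.86 ± 0.23 (interval -1.34 to -0.37, limma adjusted p = 0.0528), and the filter at 50 (0.0475), the replicate block (0.0490), edgeR (0.0486) and DESeq2 (0.0108) put it past the threshold. The other 16 of 20 alternatives did not, among them all 12 that left out 1 tumour, with adjusted p up to 0.202 (no filter).

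No other member passed in A375R. BCL2A1 in mixed tumours was 138, 162 and 75.6 under vehicle and 64.1, 13.8 and 82.3 with drug (-1.48 ± 0.48, limma adjusted p = 0.0966), with overlapping ranges. Without the third mixed drug tumour it passed (0.0465), and BIK passed there without the second mixed vehicle tumour (0.0446). BBC3 ran from 791 to 1221, BID from 1548 to 2294, BIK from 1412 to 2819.9, BCL2 from 121 to 214 and BCL2L1 from 7488 to 11829 over the 12 tumours. In A375R alone BBC3 was 966 to 1185 under vehicle and 845 to 954 with drug, without overlap (-0.31 ± 0.15, limma adjusted p = 0.273). BCL2L1 under vehicle was 9214 to 10095 alone and 8119 to 9141 mixed, also without overlap (-0.14 ± 0.14, limma adjusted p = 0.650). The melanocytic markers summed to 30.5 to 54.1 CPM in mixed tumours under vehicle and to 11.8 to 21.9 in those of A375R alone, and SOX10 was at 26.2 ± 10.9 against 2.75 ± 1.02 (SD, n = 3). Under vemurafenib the sums were 16.9 to 21.2 mixed and 12.8 to 23.1 alone. Other marker lists differed too. The 6 leukocyte markers summed to 214 to 264 CPM alone and 119.9 to 161 mixed under vehicle (PTPRC at 0 in mixed). With drug these sums were 117 to 185 alone and 142 to 228 mixed. Cultured lines had leukocyte sums of 106.8 to 119.5 in vehicle Colo800 and 129.0 to 144.7 in UACC62 with drug, but 9.56 to 9.86 in vehicle H3122. The 8 lung epithelial markers, which include the keratins KRT7, KRT18 and KRT19, summed to 594 to 637 alone and 717 to 1078 mixed under vehicle, and to 670.3 to 786 and 803 to 1268 with drug. The 5 fibroblast markers summed to 34.1 to 43.1 alone and 35.8 to 72.6 mixed under vehicle, and to 77.2 to 105 and 82.2 to 84.7 with drug. Most of these sums was COL1A1, with means of 32.2 and 77.7 alone and 48.6 and 74.6 mixed, vehicle first. Group means of COL1A2, DCN and LUM in A375R were at most 1.54. Cultured Colo800 had a fibroblast sum of 104.8 to 108.9 in vehicle, and cultured A375 21.5 to 33.3. The part of these marker differences in the A375R values was not tested.

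**Figure D4:**
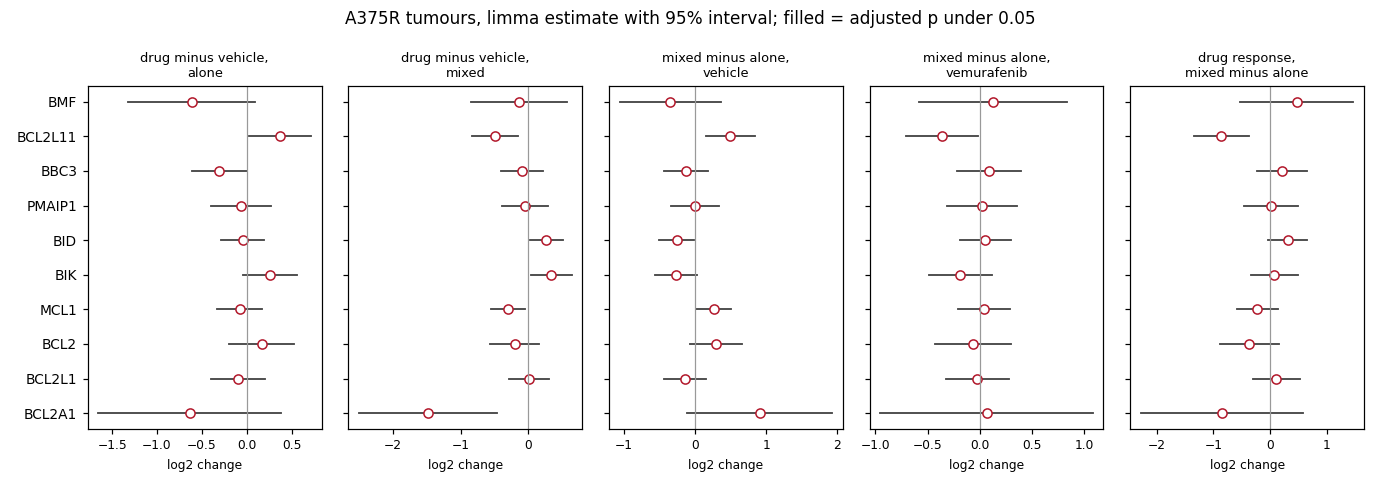
Log2 differences of the 10 members in A375R tumours for 5 comparisons, as the limma estimate with its unadjusted 95% interval; open points did not pass an adjusted p of 0.05. No point is filled, and the interval of BCL2L11 in the right panel, -1.34 to -0.37, is the only one there that leaves 0 out.

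Untreated levels were set side by side as CPM, for each gene on its own and with no test, since whole RNA of cultures and ribosome-bound RNA of tumours differ in kind. BMF was highest in H3122, 493 ± 26.3 CPM (mean ± SD), then 67.1 ± 0.711 in Colo800, 16.2 ± 3.84 in A375 culture, 4.94 ± 0.667 in A375 tumours and 2.86 ± 0.406 in UACC62. A375R tumours alone (2.34 ± 0.793) and mixed (2.10 ± 0.268) came last. The range of A375R alone overlapped those of UACC62 and of mixed tumours, while UACC62 lay above mixed tumours. PMAIP1 was highest in tumours, with 229 ± 23.5 in A375 tumours, 214 ± 25.1 in mixed and 181 ± 18.6 in A375R tumours alone. Cultures had 48.8 ± 2.43 in H3122, 33.5 ± 2.59 in Colo800, 21.3 ± 2.04 in A375 and 13.1 ± 1.51 in UACC62. This order was not the reverse of that of BMF, as UACC62 was low for both genes. The CPM ranges of PMAIP1 in A375 tumours and mixed tumours overlapped. Mixed tumours lay above A375R alone in CPM, but in normalised reads these 2 groups overlapped, with means of 6616 and 6583.

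BIK split the series in 2. A375R tumours alone had 56.6 ± 7.42 CPM, mixed tumours 55.6 ± 7.18 and H3122 30.1 ± 3.91. UACC62 (1.15 ± 0.493), A375 culture (1.02 ± 0.441), A375 tumours (0.630 ± 0.457) and Colo800 (0.484 ± 0.200) were all near 1 or under it. The range of A375 tumours overlapped those of UACC62, A375 culture and Colo800, while Colo800 lay under UACC62 and A375 culture. BCL2L1 was likewise highest in A375R, 284 ± 15.8 mixed and 264 ± 6.83 alone, then 143 ± 6.29 in H3122, 80.3 ± 4.93 in A375 tumours, 67.3 ± 0.318 in Colo800, 63.0 ± 9.47 in A375 culture and 46.0 ± 1.66 in UACC62. Colo800 and A375 culture overlapped. The CPM order of mixed over alone did not hold in normalised reads, where BCL2L1 had means of 8740 mixed and 9608 alone with no overlap. Tumours of A375R and of its parent A375 were both ribosome-bound preparations but stand in different tables. Line, table and experiment thus cannot be told apart in their gaps in BIK and BCL2L1.

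BCL2A1 was highest in UACC62 at 95 ± 3.3 CPM, then 20.7 ± 0.856 in Colo800 and 5.68 ± 1.92 in A375 culture, whose range overlapped that of mixed tumours. MCL1 was highest in H3122 at 3060.4 ± 118 and lowest in UACC62 at 188 ± 7.0, with the other 5 groups between 480.2 ± 44.2 and 678 ± 16.3. BCL2 was highest in Colo800 at 16.3 ± 0.366, the line where it fell with drug. BCL2L11 was highest in A375 tumours (62.9 ± 11.6) and lowest in A375R alone (12.4 ± 1.54). BBC3 was lowest in Colo800 (5.83 ± 0.207) and highest in the 2 A375R groups, which overlapped (33.0 ± 5.55 mixed). In normalised reads the mixed mean of BBC3 was the lower one, 1023 against 1105 alone. BID ran from 108 ± 2.22 in H3122 to 22.6 ± 0.0936 in UACC62.

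**Figure D5:**
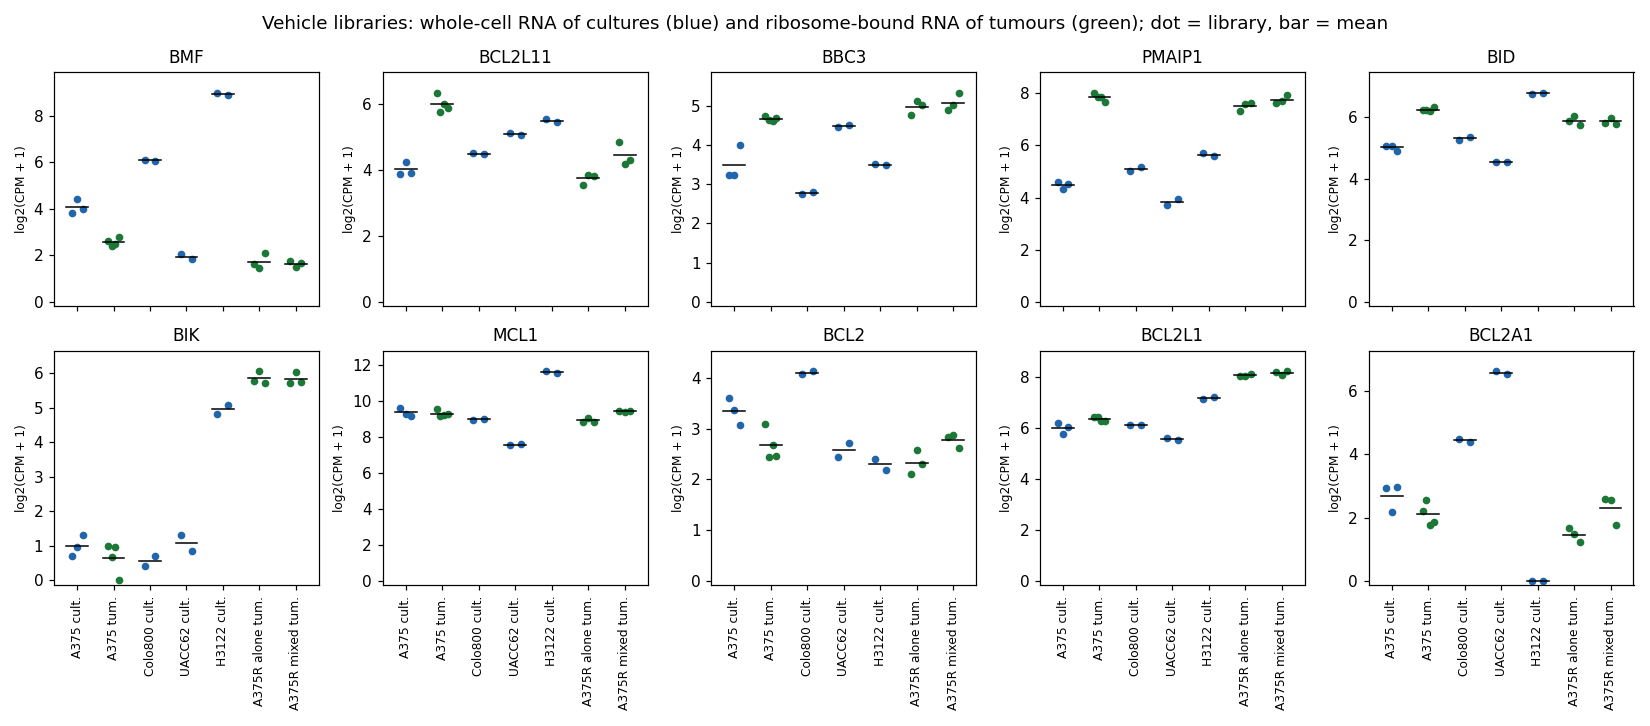
Levels of the 10 members in vehicle libraries, as log2(CPM + 1), with 1 dot per library and a bar at the mean; blue is whole RNA of cultures and green ribosome-bound RNA of tumours. BIK is low in 4 of the 7 groups, BCL2L1 is highest in A375R tumours, and BCL2A1 is at 0 in H3122.

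The genes around the family were counted from 8 lists. Their counts stand beside the shares of all genes called in either direction, 4.4% in A375 at 6 h, 50% at 48 h, 73.3% in Colo800, 56.5% in UACC62, 46.1% in H3122 and 68.3% in A375 tumours. Of 8 MAPK readouts, all 8 fell in A375 at 6 h and at 48 h, in Colo800, UACC62 and H3122, and 7 of 8 in A375 tumours. The 68.3% for tumours counts calls in either direction. The share of all genes that fell is not given here, so these falls have no like share beside them. In A375R 0 of 8 passed alone and 1 of 8 fell in mixed tumours, SPRY4, a feedback inhibitor of the pathway (-0.81 ± 0.13, limma adjusted p = 0.00286). SPRY4 was also higher in mixed than in A375R tumours alone under vehicle (0.70 ± 0.13, limma adjusted p = 0.00605).

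Of the effectors BAX, BAK1 and BOK, none passed in A375 culture at either time or in UACC62. BOK rose in Colo800 (0.70 ± 0.16, limma adjusted p = 0.000735), all 3 fell in H3122 (BOK -0.59 ± 0.10, BAX -0.54 ± 0.11), and in A375 tumours BAK1 (-0.42 ± 0.08) and BAX (-0.19 ± 0.07) fell. Of the 5 other BH3 genes, BAD rose in A375 at 48 h (0.55 ± 0.15), Colo800 (0.37 ± 0.08), UACC62 (0.59 ± 0.12) and A375 tumours (0.95 ± 0.08). BNIP3, a mitophagy receptor, fell in those 4 (-0.73 ± 0.16, -1.71 ± 0.06, -1.42 ± 0.10 and -0.59 ± 0.08) and rose in H3122 (0.65 ± 0.10). Among other BCL2 relatives BCL2L12 fell in A375 at 48 h (-0.72 ± 0.15), Colo800 (-1.03 ± 0.11), UACC62 (-1.08 ± 0.14) and H3122 (-0.64 ± 0.11).

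Downstream of the mitochondria, CYCS, which encodes cytochrome c, fell in A375 at 48 h (-0.84 ± 0.17), Colo800 (-0.51 ± 0.04), H3122 (-0.78 ± 0.09) and A375 tumours (-1.15 ± 0.08). Of the 11 apoptosome and caspase genes 2 rose and 7 fell in A375 tumours, 3 rose and 6 fell in Colo800, 2 and 3 in UACC62, 2 and 2 in A375 at 48 h, and 0 and 3 in H3122. These counts lie near or under the shares of all genes called (68.3%, 73.3%, 56.5%, 50% and 46.1%) and are no result about the list. HTRA2, a mitochondrial protease, rose in A375 culture at 48 h (0.83 ± 0.12) and tumours (1.41 ± 0.09) but fell in Colo800 (-0.70 ± 0.04) and UACC62 (-0.94 ± 0.10). BIRC5, which encodes survivin and is tied to mitosis, fell in A375 at 48 h (-2.92 ± 0.21), Colo800 (-3.25 ± 0.07), UACC62 (-6.64 ± 0.15), A375 tumours (-1.56 ± 0.11) and, less, in H3122 (-0.27 ± 0.09). BIRC3, an inhibitor of apoptosis, rose in A375 tumours (1.71 ± 0.15) and fell in UACC62 (-2.28 ± 0.40), H3122 (-0.84 ± 0.15) and mixed A375R tumours (-0.79 ± 0.16).

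In the death receptor arm, CFLAR, which blocks caspase-8, rose in A375 at 48 h (0.83 ± 0.17), Colo800 (0.72 ± 0.06), UACC62 (0.73 ± 0.11), H3122 (0.72 ± 0.09) and A375 tumours (0.36 ± 0.08). The TRAIL receptor TNFRSF10A fell in A375 at 48 h (-2.12 ± 0.26), H3122 (-1.70 ± 0.14) and A375 tumours (-2.06 ± 0.21). Of the 13 regulators and partners, 10 rose and 2 fell in A375 tumours, 4 and 1 in A375 at 48 h, 5 and 2 in Colo800, 3 and 3 in UACC62, and 2 and 2 in H3122. Outside A375 tumours (12 of 13 beside 68.3%) the counts lie under the shares of all genes called (50%, 73.3%, 56.5% and 46.1%). FOXO3, a factor known to act on BCL2L11 and BBC3, rose in A375 at 48 h (0.97 ± 0.17), Colo800 (1.17 ± 0.05), UACC62 (0.53 ± 0.13), H3122 (0.55 ± 0.10) and A375 tumours (1.11 ± 0.08). In A375R only DDIT3, a stress-response factor, passed from this list. It was higher in mixed than alone tumours under vemurafenib (0.96 ± 0.18, limma adjusted p = 0.0451, near the threshold) and in the interaction (1.28 ± 0.25, limma adjusted p = 0.021). Of all genes 0.24% and 2.89% passed in these comparisons. The number of genes called under vemurafenib ran from 1 to 38 when 1 tumour was left out.

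Across the 41 libraries, with each table's mean removed, the genes most like BMF were DNAJB2 (Pearson r = 0.956), ARHGEF37 (0.941) and FOXD3 (0.931), out of 11231 genes past the filter in all tables. PMAIP1 was most like PHLDA2 (0.965), UCK2 (0.958) and GRPEL1 (0.956), MCL1 most like the immediate early genes IER3 (0.920) and IER2 (0.906) and PHC2 (0.897), and BBC3 most like SIRT2 (0.866) and SESN1 (0.864). The gene most like BCL2L11 was SPATA6 (0.854), that most like BID was TPM4 (0.894), and that most like BCL2 was LPHN2 (0.884). Within the family BMF and PMAIP1 ran against each other (r = -0.92), and PMAIP1 ran with MCL1 (r = 0.80). The libraries share drug and vehicle groups, so these values are a description with no test.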

How the data were processed

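Whole RNA of cultures and ribosome-bound RNA of tumours were sequenced after TruSeq RNA library preparation, per the labels' protocols. The submitters' processing notes list the builds hg19 and mm9 and, with no roles, DESeq 1.18.0, HTSeq 0.5.4 and STAR 2.3.0e. The deposited values are a normalised read signal per gene and library that the authors made, counts divided by a size factor; dividing by each library's step gave whole reads for 100% of values (tolerance 0.1). The handling of mouse reads was: not given in the sources used here.

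Within each of 6 tables, limma 3.58.1 (R 4.3.3) with a mean-variance trend was run on log2(value + 1) for genes with a mean of at least 10, with all groups of the table, two-sided, Benjamini-Hochberg adjusted over all tested genes. Log2 changes are on this scale, which understates low genes, with ± SE. Alternatives were other pseudocounts (0.5, 5), filters (none, 50), quantile normalisation, a replicate block, 2-group fits, each library left out, edgeR 4.0.16 and DESeq2 1.42.0 on recovered reads. The scripts were tested on simulated data. The members and lists were chosen with earlier results of these data known, and the motifs and printed promoters after their values were seen. Beside the 10 members, up to 2 genes per list, comparison and direction with the smallest adjusted p are named; FOXO3 in UACC62 and MITF in Colo800 fall outside this rule and were chosen after their values were seen.

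Replicate numbers pair libraries where all same-number deviations correlate above 0.1: this held in A375 culture between vehicle and 6 h (lowest 0.355) and between 6 h and 48 h (lowest 0.254), but not between vehicle and 48 h (lowest -0.0187).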

Additional observations from a re-analysis of the deposited data

Results flagged for a closer look

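Of 20 checks, each of 1 member in 1 group of 4 A375 tumours, 2 found a library far from the rest of its group, where chance marks about 1 in 20. Both were the first vemurafenib-treated A375 tumour. Its BCL2L11 value was 805 normalised reads against a next lowest of 992, and its BCL2A1 value was 328 against a next highest of 168. Levels of 4 members in drug-treated A375 culture differed between 48 h and 6 h by limma. Drug exposure and time in low-serum medium cannot be told apart in this contrast. The difference, 48 h minus 6 h, was 2.06 on the log2 scale for BMF, 0.82 for BCL2L11, 1.40 for BCL2A1 and -1.61 for PMAIP1.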

How the results depend on the processing

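Of 1693 refits of a member, 1639 kept their side of the threshold, 33 lost a call and 21 gained one. The sign changed in 72, of which 0 had a call in either fit. Counts of members moved as follows. Without the filter they went from 2 to 1 in A375 at 6 h, from 5 to 4 at 48 h (BCL2L11 and BID lost, BIK gained), from 6 to 5 in H3122 and from 8 to 3 in UACC62; for 48 h against 6 h they stayed at 4 (BCL2L11 lost, BIK gained). Quantile normalisation gave 1 in place of 0 (MCL1) in mixed A375R tumours and in mixed against alone under vehicle. The interaction gave 1 in place of 0 (BCL2L11) with the filter at 50, the replicate block, edgeR and DESeq2. Leaving out 1 library gave 2 to 3 in A375 at 6 h, 3 to 5 at 48 h (3 without the first vehicle library), 3 to 4 for 48 h against 6 h, 5 to 7 in H3122, 7 to 8 in A375 tumours, 5 to 9 in UACC62 (5 without either vehicle library), and 0 to 1 in mixed A375R tumours (1 without the second vehicle or the third drug tumour). In Colo800 quantile normalisation shifted the median of all genes by 0.10 and changed no member's call.

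Counts of all genes called moved more. Without the filter they were 356 in A375 at 6 h (608 before), 4506 in UACC62 (7707) and 2294 in H3122 (6436). For A375R they went from 109 to 1 alone, 478 to 137 mixed, 33 to 6 and 454 to 137 for mixed against alone under vemurafenib and vehicle, and 397 to 30 for the interaction. DESeq2 gave 1045 at 6 h, and 755, 958, 151, 870 and 887 in the same A375R order. Fits of 2 groups alone gave 533 for A375R alone, 248 mixed and 8 for mixed against alone under vemurafenib, where quantile normalisation gave 10 and edgeR 13; the filter at 50 gave 297 under vehicle. Without 1 library the ranges were 309 to 641 at 6 h, 5248 to 9872 in UACC62, 4417 to 6910 in H3122, and 1 to 326, 96 to 563, 1 to 38, 109 to 660 and 10 to 526 in A375R. The causes were not tested.

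With the replicate block, members called went from 2 to 3 at 6 h and from 5 to 7 at 48 h in A375, and all genes from 608 to 1462 at 6 h; the other calls it changed are BID and BCL2 in UACC62 and BCL2L11 in the interaction. It gave 298 genes for A375R alone and 65 for mixed against alone under vemurafenib. Same-number libraries correlated at -0.43 in H3122, and a crossed pairing, chosen after seeing the data, called 8 members and 8522 genes there, against 6 and 5381 as numbered. Depth limits BIK and BCL2A1, with few or no reads in several tables.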
